A study of Mus musculus with 21 samples.

Results

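The enzymes that copy DNA methylation onto new DNA and the enzymes that write the Polycomb mark were followed through myogenesis and after depletion of 4 muscle nuclear envelope transmembrane proteins (NETs). Members were every array probe annotated to Uhrf1, Dnmt1, Dnmt3a, Dnmt3b, Hells, Ezh2, Ezh1, Suz12 or Eed, which gave 18 probes of 9 genes among 19057 genes named on the array. The cells were C2C12, a mouse myoblast line that fuses into multinucleate myotubes when serum is withdrawn. There were 7 groups of 3 arrays: untransduced myoblasts (MBs) at day 0, untransduced myotubes (MTs) at day 6, and day 6 MTs of lines selected with puromycin after lentiviral transduction with a control shRNA or with an shRNA against NET39 (gene Plpp7), TMEM38A, WFS1 or TMEM214. The sample labels name a control shRNA and the series design text a non-target one, while the figure legends on these arrays and a file header name an empty vector, so the sources differ on which construct it carried. All MTs were enriched by a short trypsin treatment that lifts MTs off before single cells, and the arrays measured RNA of whole preparations, so that more expressing cells and more RNA per cell cannot be told apart. Whether the arrays of a line came from separately derived lines is not stated in the labels. The p-values measure the spread between these samples.

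DNA methylation at CpG sites is kept through cell division by copying it onto the new strand behind the replication fork. UHRF1 binds hemimethylated CpG and brings in DNMT1, the maintenance methyltransferase, while DNMT3A and DNMT3B set methylation on unmethylated DNA and HELLS (LSH) is a remodelling ATPase that helps methylate repeats. Polycomb repressive complex 2 (PRC2) methylates lysine 27 of histone H3. Its catalytic subunit is EZH2 in dividing cells or the related EZH1, which persists in resting tissue, and it needs SUZ12 and EED, the latter reading the mark it makes. In muscle precursors EZH2 is known for holding muscle genes silent until differentiation, and several of these genes are known targets of E2F factors, which drive S phase genes.

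The sequences around E2F-type motifs in the members' promoters are shown as a description, chosen with results of these data known. A link between a motif and a change in level was not tested. RefSeq promoter windows (GRCm38.p6, from 250 bases before to 50 after a start site) were searched on both strands for the E2F motifs TTTCCCGC, TTTCGCGC and TTTGGCGC, for the cell cycle element CHR (TTTGAA) and for the E-box CAGCTG, and all 9 member genes had at least 1 window. The E2F motif, or its reverse complement, is in capitals in the following stretches, each written in the direction of its gene.
Uhrf1, start site 2, chr17:56304117-56304146, plus strand: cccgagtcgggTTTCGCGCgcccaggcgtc
Dnmt1, start site 3, chr9:20952824-20952853, minus strand: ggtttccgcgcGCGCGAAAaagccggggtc
Hells, chr19:38930917-38930946, plus strand: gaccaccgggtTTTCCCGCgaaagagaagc
Ezh2, chr6:47595009-47595038, minus strand: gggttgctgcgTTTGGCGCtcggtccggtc
Suz12, chr11:79992876-79992905, plus strand: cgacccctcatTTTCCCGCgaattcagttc
In Dnmt1 another motif, TTTGGCGC, lay at base 34 of the transcript. The motif printed began 185 bases before the start site in Uhrf1, 219 in Dnmt1, 62 in Hells and 219 in Suz12, and at base 4 of the transcript in Ezh2. Thus 5 of 9 member genes had an E2F motif in 1 of their windows, beside 2.12% of all genes with a window. The CHR element was found in Dnmt1, Dnmt3b, Suz12 and Eed, which is 4 of 9 beside 20.2% of all genes, and the E-box in 0 of 9 beside 18.3%. No overlap between matches was found (0 pairs). Dnmt3a and Ezh1 held none of the motifs searched. Genes with several start sites had more windows, and a match describes letters in a window only. Hells had an E2F motif but was near background on the arrays, while Dnmt3b, which was lower in MTs than in MBs, had none.

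The arrays carried 45281 probes, of which 27840 (61.5%) were kept as above the array's background level on at least 3 arrays. The 15 shRNA arrays were brighter in the scanner (mean intensity 301 to 533) than the 6 from untransduced cells (172 to 289), so brightness and transduction cannot be told apart. MB replicate 1 stood apart, with 1136 kept probes more than 1 log2 unit from the mean of the other MB arrays, which differed by that much at 53 probes. The shRNA targets were lower in their own lines, Plpp7 3.45-fold, Tmem38a 21.9-fold, Wfs1 18.0-fold and Tmem214 2.25-fold. MT identity was checked with 16 myotube markers, of which 14 were measured and 14 rose from MBs to MTs.

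Of the 18 member probes 11 were kept, and they covered 7 of the 9 genes. Dnmt3a, the de novo methyltransferase found in most somatic cells, was not well above background with any of its 3 probes on any array. Hells was above background on 1 array with 1 probe and on 0 with the other. The second Dnmt3b probe was above background on 1 array and the third Ezh2 probe on 0. Without the filter these 7 probes gave log2 ratios from −0.10 to 0.09 over the 6 comparisons and no call. Levels below are log2 intensities after normalization, and are compared between groups for a probe, never between probes.

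Uhrf1 (chr17:56303337-56323486, GRCm38.p6) had 2 probes with different records. Probe ILMN_2517041 was above background on 21 of 21 arrays. Its levels were 11.70, 11.21 and 11.06 in MBs and 6.56, 7.44 and 7.24 in untransduced MTs. The groups lay far apart, and untransduced MTs were the most spread of the 7 groups (SD 0.46, n = 3). Control shRNA MTs had 7.04, 7.08 and 6.88, WFS1 shRNA MTs 6.79, 6.67 and 6.55, and TMEM38A shRNA MTs 6.60, 6.66 and 6.92. NET39 shRNA MTs had 8.64, 8.68 and 8.58, and TMEM214 shRNA MTs 8.0, 8.05 and 7.96. Every array of these last groups was above every other MT array and below every MB array.

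Over the 7 groups the order of Uhrf1 means was therefore MB (11.33 ± 0.33, SD, n = 3), NET39 (8.63 ± 0.05), TMEM214 (8.0 ± 0.04), untransduced MT (7.08 ± 0.46), control (7.00 ± 0.11), TMEM38A (6.73 ± 0.17) and WFS1 (6.67 ± 0.12). The first 3 steps down passed the test in limma, at 2.70 (adjusted p = 2.34e-10), 0.63 (adjusted p = 0.0329) and 0.93 (adjusted p = 0.000877) on the log2 scale. The last 4 groups did not separate from their neighbours, with steps of 0.08, 0.27 and 0.05 and adjusted p from 0.380 to 0.881.

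**Figure D1:**
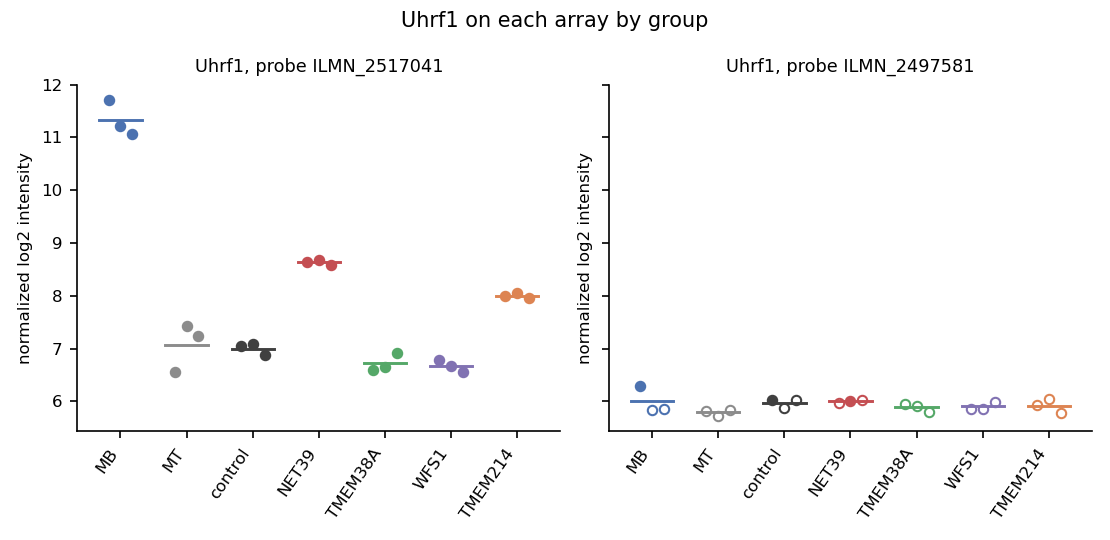
Normalized log2 intensity (vertical axis) of the 2 Uhrf1 probes on each of the 21 arrays by group, with a line at each group mean; filled points are above the array's background level and open points are not. Probe ILMN_2517041 has MBs between 11.06 and 11.70, NET39 and TMEM214 shRNA MTs between 7.96 and 8.68, and all other MTs between 6.55 and 7.44, while probe ILMN_2497581 is filled on 3 arrays only.

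The other Uhrf1 probe, ILMN_2497581, was above background on 3 of 21 arrays, 1 each in MBs, control and NET39 shRNA MTs. Its levels ran from 6.29, 5.84 and 5.86 in MBs to 5.82, 5.73 and 5.84 in MTs, which lay close to the background level in both groups. No comparison called it, with a log2 ratio of −0.20 in myogenesis (95% interval −0.41 to 0.01) and 0.02 in NET39 (−0.19 to 0.23). Over the 21 arrays the pair correlated at r = 0.35. The probe's record bears on a fit that averages the probes of a gene, in which the Uhrf1 ratio was 0.83 in NET39 and 0.47 in TMEM214, the latter no longer called.

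In myogenesis (untransduced MTs minus MBs), 5 of the 11 kept member probes were called lower and 0 higher, where a call is a probe whose ratio exceeded 0.5 on the log2 scale, up or down, at an adjusted p under 0.05. That is 45.5% lower, beside 12.9% of all kept probes lower and 11.8% higher. The median log2 ratio of the 11 probes was −0.34, against −0.02 over all kept probes. The 5 probes were those of 5 genes, Uhrf1, Dnmt1, Dnmt3b, Ezh2 and Suz12. For each of them no MT array reached the lowest MB array. The same held for the second Uhrf1 probe, which was not called, and the share over all kept probes was not counted.

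Uhrf1 fell by 4.25 on the log2 scale, a 19.0-fold lower level (SE 0.17, adjusted p = 2.17e-13, limma), and 0.0934% of kept probes fell further. Its partner Dnmt1 (chr9:20907206-20959888) had 9.59, 9.19 and 9.13 in MBs and 7.69, 7.72 and 7.39 in MTs. This was a 3.25-fold lower level (log2 −1.70, SE 0.13, adjusted p = 2.46e-09). The methyltransferase Dnmt3b (chr2:153649411-153687730) had 7.39, 7.30 and 7.26 in MBs and 6.87, 6.48 and 6.64 in MTs with probe ILMN_1252310. It was 1.57-fold lower (log2 −0.65, SE 0.09, adjusted p = 5.40e-06), the smallest of the 5 changes, and with the log2 values deposited by the authors it was −0.47 and under the size threshold.

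Among PRC2 core genes, Ezh2 (chr6:47530274-47595270) had 9.59, 8.60 and 9.06 in MBs and 7.83, 7.47 and 7.21 in MTs with probe ILMN_1234171. The level in MTs was 2.98-fold lower (log2 −1.58, SE 0.19, adjusted p = 1.96e-06). The second kept Ezh2 probe was above background on 9 arrays, and its ratio of −0.34 (adjusted p = 0.0453) had the same sign but was under the size threshold; without MB replicate 3 it was called (−0.59, adjusted p = 6.02e-06). Suz12 (chr11:79993106-80034123) had 11.30, 11.02 and 10.96 in MBs and 10.12, 9.55 and 9.81 in MTs with probe ILMN_3009010, a 2.41-fold lower level (log2 −1.27, SE 0.12, adjusted p = 9.05e-08). The second Suz12 probe was dim, with a ratio of −0.02 (95% interval −0.17 to 0.13) and r = 0.17 with the first over the 21 arrays. With all arrays no second probe of a member was called in any of the 6 comparisons, so calls in opposite directions could not arise.

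The remaining PRC2 genes did not pass the test. Ezh1 (chr11:101191115-101226463), the catalytic subunit of resting cells, had 6.24, 6.22 and 6.10 in MBs and 6.51, 6.45 and 6.17 in MTs. These values overlap, and the log2 ratio was 0.19 (95% interval −0.00 to 0.38, adjusted p = 0.119). The brightest Ezh2 probe had −1.58 (95% interval −1.98 to −1.17), and no test of the difference between the Ezh2 and Ezh1 probes was made. The Ezh1 probe was above background on 21 arrays but dim, with group means from 6.19 to 6.41. A change in Ezh1 may thus be understated, and the sizes of these ratios cannot be set against each other.

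Eed (chr7:89954654-89980976) rested on 1 array. Its brightest probe had 8.95, 7.11 and 6.99 in MBs and 8.53, 8.19 and 8.43 in MTs. The first MB array, the one that stood apart over all probes, was above every MT array, and the others were more than 1 log2 unit below every MT array. With all arrays the log2 ratio was 0.70 (95% interval 0.03 to 1.36, adjusted p = 0.0935, not called). Without that MB array it was 1.33 (adjusted p = 3.43e-08), and with array weights 1.13 (adjusted p = 0.000192). The second Eed probe, above background on 4 arrays, gave 0.01. Without MB replicate 1 the count of member calls was 1 higher and 5 lower of 10 kept probes.

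**Figure D2:**
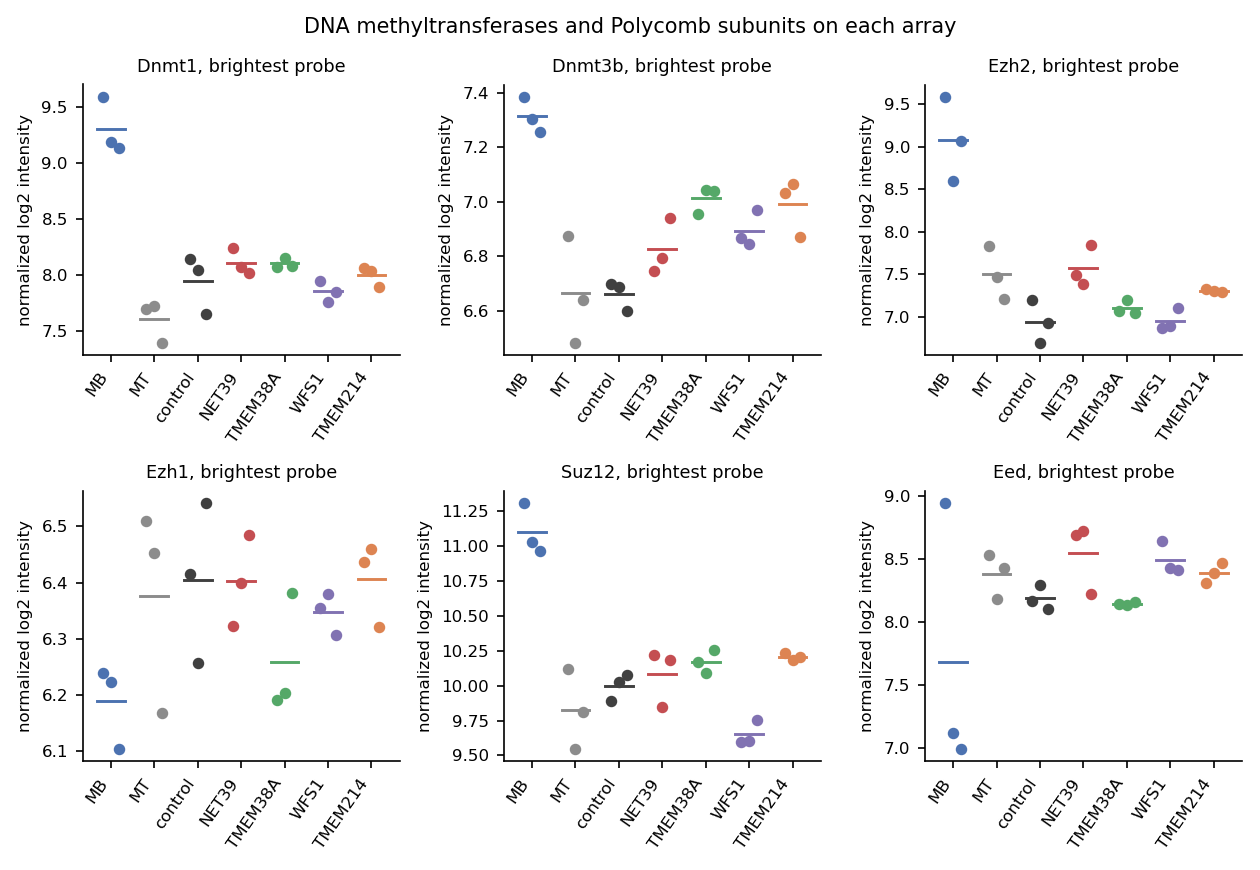
Normalized log2 intensity (vertical axes, each with its own range) of the brightest probe of Dnmt1, Dnmt3b, Ezh2, Ezh1, Suz12 and Eed on each array by group, with a line at each group mean. MBs are the highest group for Dnmt1, Dnmt3b, Ezh2 and Suz12, and the MB arrays of Eed are split between 8.95 and about 7 (7.11 and 6.99).

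The genes around the members were read from lists with 1 probe a gene (the brightest kept), of which 14.5% were called higher and 16.4% lower in myogenesis over all 13574 genes. Of the replication-coupled chromatin genes 10 of 12 were lower and 0 higher, led by Chaf1b (−3.31), Asf1b (−2.65) and Chaf1a (−2.64), histone chaperones that assemble nucleosomes on new DNA, while Pcna, the sliding clamp, had 0.11 with an SD of 1.47 among MB arrays. Of 20 measured proliferation markers 19 were lower (median −3.18) and 0 higher. Their summed level was 34462 to 36174 in MBs and 2568 to 3601 in MTs on the linear scale, and the part of this in the members' fall was not tested.

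Of 22 DNA methylation partners 13 were measured, 5 lower and 0 higher. They were Cdca7 (−2.67), which recruits HELLS, the thymine DNA glycosylase Tdg (−0.88), the UHRF1 relative Uhrf2 (−0.80), the deubiquitinase Usp7 (−0.64) and the glycosylase Mbd4 (−0.61). Of 8 measured PRC2 accessory subunits 4 were lower and 1 higher. The lower ones were Epop (−1.57), Phf19 (−1.0), Rbbp7 (−0.56) and Aebp2 (−0.52). The higher one, the histone binding subunit Rbbp4 (2.19), had 4 kept probes that disagreed, at 2.19, 0.52, −0.18 and −0.96, so that its direction is uncertain.

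PRC1, which ubiquitinates histone H2A, had 6 of 22 measured subunits lower and 0 higher, with Cbx6 (−0.99), Phc2 (−0.96), Cbx2 (−0.92) and Scmh1 (−0.79) the furthest. Of 5 genes that remove Polycomb marks 1 was higher, the H3K27 demethylase Kdm6b (1.27), whose other kept probes gave 0.39 and −0.11 and were not called. Of 9 measured genes of H3K9 methylation and HP1, 4 were lower, the corepressor Trim28 (−1.62), the HP1 gene Cbx3 (−1.33), Ehmt2 (−0.63) and Setdb1 (−0.53). Of 13 germline genes known to be silenced by DNA methylation 4 were kept, and 0 were called in any of the 6 comparisons. Their summed level was 263 to 270 in MBs and 256 to 279 in untransduced MTs, with 3 and 2 of them above background on any array. Genes this close to background could not show a fall, and nothing about silencing is read from the count.

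In the transduction comparison (control shRNA minus untransduced MTs), 1 of 11 member probes was called lower (9.09%), beside 4.59% of all kept probes, and 0 higher. It was Ezh2, at 7.19, 6.70 and 6.93 in control MTs. Control arrays lay just under the untransduced ones (log2 −0.56, SE 0.19, adjusted p = 0.0482), and scaling each array by its median gave the opposite sign (0.24). Dnmt1 gave 0.34 (adjusted p = 0.0720) and Uhrf1 −0.08 (adjusted p = 0.813). Of all genes 5.94% were called higher and 5.47% lower, while 5 of 20 proliferation markers were lower and 0 higher. This list's direction depended on the scaling, with 2 higher and 0 lower under median scaling and 0 higher and 2 lower with the deposited values. Of undifferentiated myoblast markers 4 of 11 were lower and 1 higher, and of fibroblast markers 2 of 5 were lower (summed level 789 to 981 in control and 1758 to 1957 in untransduced MTs). The chromatin genes called were Cdca7 (−0.90), Ring1 (−0.88), Cbx5 (−0.81), Pcgf1 (−0.79) and Trim28 (−0.51), all lower, and Lig1 (1.13), Mtf2 (0.84) and Usp7 (0.56), all higher, and under median scaling 0 genes of these chromatin lists were lower.

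In NET39 shRNA MTs, 2 of 11 member probes were called higher (18.2%), beside 3.96% of all kept probes, and 0 lower. They were the first probes of Uhrf1 and Ezh2. Uhrf1 was 3.10-fold above control MTs (log2 1.63, SE 0.17, adjusted p = 2.98e-06), the rank of 56 among the 27840 log2 ratios. It stayed 2.70 on the log2 scale below MBs. Ezh2 had 7.49, 7.39 and 7.84, against 7.19, 6.70 and 6.93 in control MTs.

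The Ezh2 difference was 1.55-fold (log2 0.63, SE 0.19, adjusted p = 0.0360), with no overlap of the groups. It was not called without control replicate 2 (0.51, adjusted p = 0.170), control replicate 3 (0.62, adjusted p = 0.0956), NET39 replicate 1 (0.67, adjusted p = 0.0737) or NET39 replicate 3 (0.50, adjusted p = 0.152). Against untransduced MTs the Ezh2 difference was 0.07 (adjusted p = 0.857). The second Ezh2 probe, above background on 3 NET39 arrays and 0 control arrays, gave 0.23 (adjusted p = 0.283).

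No other member was called with NET39 depletion against control MTs. Dnmt1 had 8.24, 8.07 and 8.02 against 8.14, 8.04 and 7.65 in control MTs, which overlap (log2 0.17, 95% interval −0.10 to 0.44, adjusted p = 0.493). Against untransduced MTs Dnmt1 was higher by 0.51 (adjusted p = 0.00917, limma) and was called. Against control MTs the interval for Uhrf1 was 1.27 to 2.00, and no test of the difference between the Dnmt1 and Uhrf1 probes was made. Suz12 gave 0.08 (−0.18 to 0.34), Ezh1 −0.00 (−0.19 to 0.19), Dnmt3b 0.17 (−0.02 to 0.35) and Eed 0.36 (−0.30 to 1.03).

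**Figure D3:**
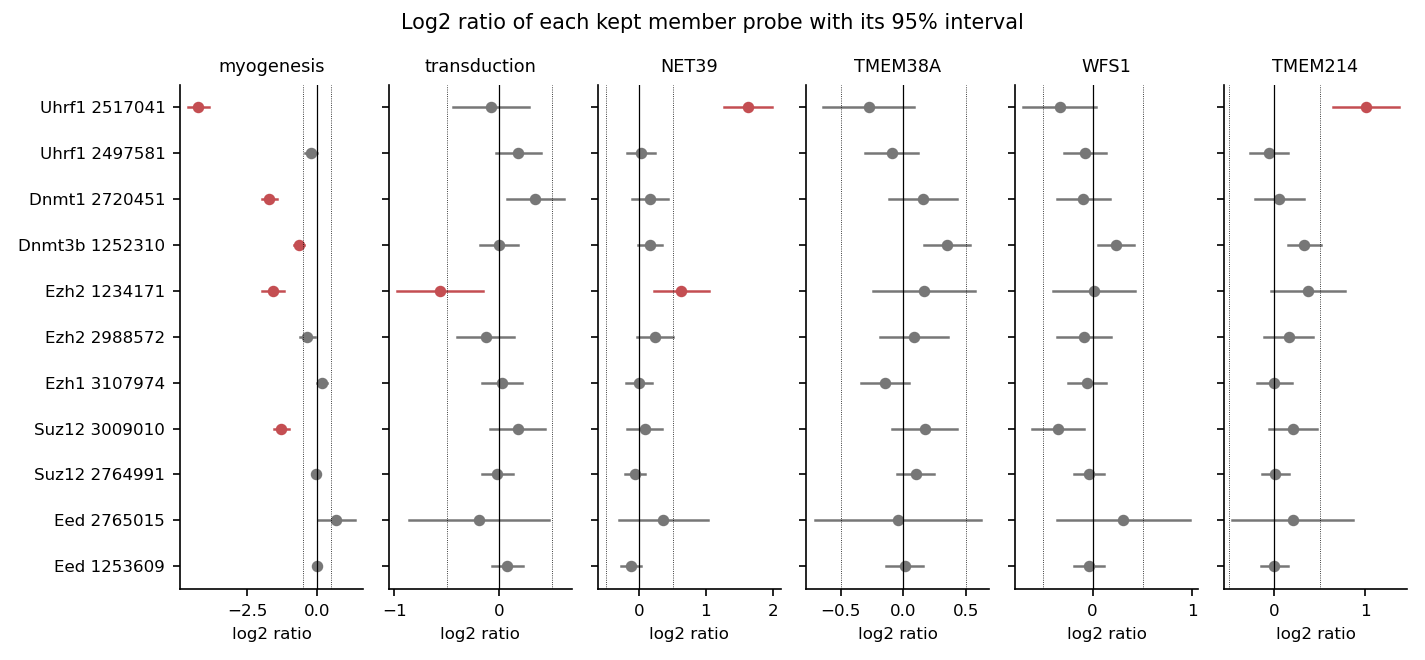
Log2 ratio (horizontal axes, each with its own range) of the 11 kept member probes in the 6 comparisons, with 95% intervals from the model; dotted lines mark a log2 ratio of 0.5 in either direction, and red marks a call. Red points are 5 in myogenesis, 1 in transduction, 2 in NET39, 1 in TMEM214 and 0 in TMEM38A and WFS1.

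Uhrf1 moved beside the proliferation markers in NET39 shRNA MTs, where 15 of 20 were higher and 0 lower (median 1.03), against 4.85% of all genes higher and 4.3% lower. Cenpa, the centromeric histone (2.15), and Cdc20, an activator of the mitotic ubiquitin ligase (1.68), led them. The summed level of the list was 5165 to 5294, against 2438 to 2522 in control MTs, and 20 and 19 of its genes were above background. Of undifferentiated myoblast markers 4 of 11 were higher, with Vcam1 at 2.48. The paper reports Vcam1 as a gene repressed less in MTs when NET39 or WFS1 is depleted, more so with NET39. It also reports by FISH that the locus was then less often at the nuclear periphery. For Vcam1 such a dependence and the state of the cells cannot be told apart here. Of 5 measured fibroblast markers 3 were higher, Col3a1 (2.79), Dcn (2.76) and Pdgfrb (0.95), with a summed level of 3545 to 5241 against 789 to 981 in control MTs. Of 14 myotube markers 2 were higher and 3 lower (summed level 99820 to 105566). Whether other cells or cycling cells account for the Uhrf1 level was not tested.

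Among chromatin genes in the same line, 2 of 12 replication-coupled genes were higher, Chaf1b (0.72) and Asf1b (0.55), and the lists of partners, PRC2 accessory and PRC1 subunits had 1 higher each, Cdca7 (0.71), Epop (0.60) and Cbx6 (0.82), with 0 lower. Of H3K9 genes and of demodifiers 0 were called. With the deposited log2 values 0 genes of any of these chromatin lists were called, and with median scaling 4 replication-coupled genes were higher.

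In TMEM214 shRNA MTs 1 member probe of 11 was called higher (9.09%), beside 3.92% of all kept probes, and 0 lower. It was Uhrf1, 2.00-fold above control (log2 1.00, SE 0.17, adjusted p = 0.000507). Ezh2 had 7.32, 7.31 and 7.30, all just above the highest control array, but did not pass the test (log2 0.37, 95% interval −0.04 to 0.77, adjusted p = 0.258). Its mean (7.31) was below that of untransduced MTs (7.51), by 0.20 (adjusted p = 0.534, limma), so the sign depended on the reference. Dnmt3b had 7.03, 7.07 and 6.87, all above the control arrays (6.70, 6.69 and 6.60), and its ratio of 0.33 (adjusted p = 0.0150) was under the size threshold. Dnmt1 gave 0.05 (−0.22 to 0.32).

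Again 13 of 20 proliferation markers were higher and 0 lower in this line, with a summed level of 3997 to 4038, against 5.07% of all genes higher and 4.17% lower. Of fibroblast markers 3 of 5 were higher (summed level 3019 to 3148). Of myotube markers 9 of 14 were lower (summed level 77652 to 79896, against 99860 to 115294 in control MTs). In the chromatin lists 0 genes were called but Lig1, the ligase that seals replicated DNA (−1.26). Lig1 was itself called higher in control than in untransduced MTs. What these markers contribute to the Uhrf1 level was not tested.

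In TMEM38A and in WFS1 shRNA MTs 0 of the 11 member probes were called, beside 7.44% and 6.74% of all kept probes. At an unadjusted p below 0.05 there were 1 and 2. The share of all kept probes at that p was not counted, so nothing about the members is read from these counts. Uhrf1 gave −0.27 in TMEM38A (95% interval −0.64 to 0.09, adjusted p = 0.380) and −0.33 in WFS1 (−0.69 to 0.03, adjusted p = 0.249), and the WFS1 arrays did not overlap the control arrays. Dnmt3b was higher by 0.35 in TMEM38A, with 6.95, 7.04 and 7.04 and an adjusted p of 0.00910, and by 0.23 in WFS1 (adjusted p = 0.0874), both under the size threshold. Suz12 in WFS1 had 9.60, 9.61 and 9.76 against 9.89, 10.03 and 10.08 in control MTs, no overlap but not called (log2 −0.35, adjusted p = 0.0730).

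Of proliferation markers 0 were called with TMEM38A depletion and 1 of 20, Mcm6 (1.54), was higher with WFS1 depletion. Their summed levels were 2427 to 2468 and 2621 to 2722. Over all genes 4.03% were higher and 5.58% lower in TMEM38A, and 4.14% and 4.08% in WFS1. Of 5 fibroblast markers 3 were lower and 0 higher with TMEM38A depletion (summed level 416 to 470). With WFS1 depletion 1, Col3a1 (2.05), was higher and 0 lower, at a summed level of 1546 to 2281 against 789 to 981 in control MTs. Chromatin genes called in these lines were few, with Lig1 (−2.14), Zbtb33 (−0.55) and Rybp (−0.53) lower in TMEM38A, and Lig1 (−1.52), Rybp (−0.88), Mbd1 (−0.66) and Pcgf3 (−0.55) lower and Cbx6 (0.83) and Pcgf5 (0.69) higher in WFS1. Since Lig1 was called higher in control than in untransduced MTs, its ratios here start from a raised control level.

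The knockdown lines were also compared with each other, since each of the above uses the same control arrays. Over the 6 pairs 8 of 66 tests of member probes were called (12.1%), beside 9.19% of all tests. Uhrf1 accounted for 5 of them. NET39 shRNA MTs were 3.75-fold above TMEM38A (log2 1.91, adjusted p = 1.26e-07), 3.89-fold above WFS1 (1.96, adjusted p = 1.36e-07) and 1.55-fold above TMEM214 shRNA MTs (0.63, adjusted p = 0.0329). The last of these was not called when any of the 6 arrays of the pair was left out (0.60 to 0.65, adjusted p from 0.0716 to 0.103). TMEM214 in turn was 2.43-fold above TMEM38A (adjusted p = 1.66e-05) and 2.52-fold above WFS1 (adjusted p = 2.05e-05). For Ezh2 NET39 exceeded WFS1 by 0.62 (adjusted p = 0.0346), and its NET39 and TMEM38A lines did not pass the test of their difference. Suz12 was lower in WFS1 than in TMEM38A (by 1.43-fold, adjusted p = 0.00551) and TMEM214 (by 1.47-fold, adjusted p = 0.00418). The Ezh2 call was lost without NET39 replicate 1 (0.65) or 3 (0.48) or WFS1 replicate 1 (0.57) or 2 (0.58). The Suz12 difference between TMEM38A and WFS1 came under the size threshold without TMEM38A replicate 3 (0.48) or WFS1 replicate 1 (0.49) or 2 (0.49).

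**Figure D4:**
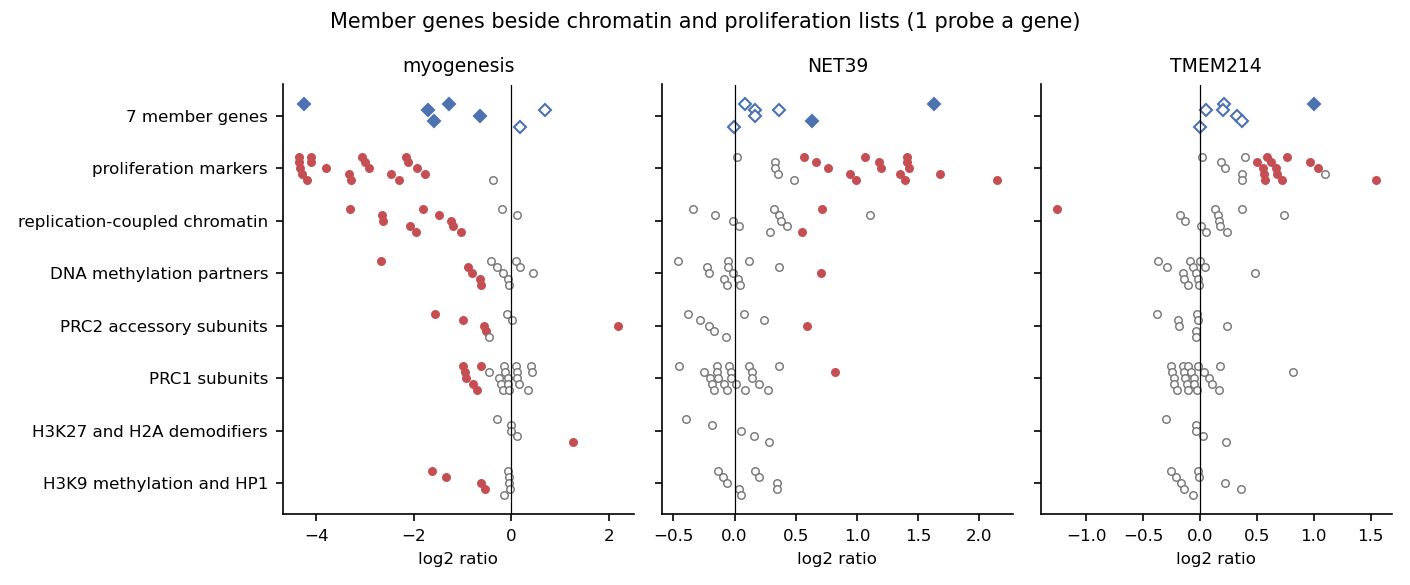
Log2 ratio (horizontal axes, each with its own range) of the 7 member genes (blue diamonds) and of 7 gene lists (circles), 1 brightest kept probe a gene, in myogenesis, NET39 and TMEM214; filled marks are called, and vertical scatter within a row has no meaning. In myogenesis 5 diamonds are filled to the left of 0, in NET39 2 to the right, and the proliferation row has 19 and 15 filled circles on the same sides.

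The genes whose pattern was most like that of Uhrf1 were named by Pearson correlation over all 21 arrays among 13567 genes, as a description over arrays that share groups. They were Nusap1 (0.993), a spindle protein, Mcm4 (0.989), a helicase subunit of the replication fork, Pbk (0.989), a mitotic kinase, Prc1 (0.987), which bundles microtubules of the central spindle and is unrelated to Polycomb complex 1, and Anln (0.987), a cytokinesis protein. Over the 15 shRNA arrays alone Nusap1 (0.989) and Pbk (0.979) were again among the first 5, with Mis18a (0.982), H2ac11 (0.980) and Cdc20 (0.979). For Ezh1, whose probe was dim, the highest were lower, with Gal3st2 (0.743), Rpl22 (0.727), Thra (0.715), Rap1gap (0.709) and Tmem40 (0.707).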

How the data were processed

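RNA of the 21 C2C12 preparations was hybridised to Illumina MouseWG-6 arrays. The authors deposited a scanner table of bead summary intensity per probe, which is not normalized, and a table of quantile-normalized log2 values of the same arrays. Intensities were background corrected with normexp (offset 50), quantile normalized and taken to log2 in limma 3.58.1 (R 4.3.3), and the deposited log2 values served as an alternative. A probe was kept if it exceeded the background level (mode of the log2 signals plus the upper 0.05 normal quantile of the spread below it) on at least 3 arrays. Of 45281 probes 34885 had 1 gene symbol, 18 several and 10378 none, and only the first were named. The array files hold no control probes or detection p-values, so that no other background model was used, and the number of arrays limits the precision.

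All 21 arrays entered 1 linear model with 7 group means, contrasts were tested with limma's moderated test, two-sided, and p-values were adjusted by Benjamini-Hochberg over the 27840 kept probes. A probe was called where its log2 ratio exceeded 0.5, up or down, at an adjusted p under 0.05. The fit was tested on simulated data. Lists used the brightest kept probe per gene, and the genes most like Uhrf1 or Ezh1 were the 5 with the highest Pearson correlation. All member probes were named. Members, lists and named genes were chosen with earlier results of these data known. Replicate numbers are shared between groups. Same-numbered arrays deviated together in myogenesis (r from 0.137 to 0.275), transduction (0.122 to 0.158) and NET39 (0.173 to 0.264), and not in every pair elsewhere (lowest r −0.0945), so the numbers were used as a block in an alternative. Other alternatives were the background correction, scaling, filter, probe summary, array weights, reference group and leaving out each array.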

Additional observations from a re-analysis of the deposited data

Results flagged for a closer look

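Between knockdown lines 8 of 66 tests of member probes were called in limma (12.1%), beside 9.19% of all tests, so that the count by itself is near the share over all probes. The first Uhrf1 probe was higher in NET39 than in TMEM38A shRNA MTs by 1.91 on the log2 scale, than in WFS1 by 1.96 and than in TMEM214 by 0.63. Against TMEM214 shRNA MTs it was −1.28 in TMEM38A and −1.33 in WFS1. Ezh2 was higher in NET39 than in WFS1 shRNA MTs by 0.62. Suz12 was higher in TMEM38A than in WFS1 shRNA MTs by 0.52, and WFS1 minus TMEM214 was −0.55. Each compares 3 arrays with 3. The summed proliferation markers given above were highest in NET39, followed by TMEM214, WFS1 and TMEM38A. Their part was not tested. The difference of Uhrf1 between NET39 and TMEM214 was not called once any array of either group was left out. Those of Ezh2 between NET39 and WFS1 and of Suz12 between TMEM38A and WFS1 were lost without single arrays named above, and without background correction (0.50, adjusted p = 0.0620, and 0.50, just under the size threshold).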

How the results depend on the processing

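Over single member probes, the 6 comparisons and the called pairs of knockdowns, 1136 alternative values stayed on the same side of the threshold. Of the rest, 9 passed it newly, 40 no longer passed and 3 turned sign with a call before or after. Values called neither before nor after could also turn sign, and they were counted among the 1136. The first Ezh2 probe, for example, had a mean of 7.11 in TMEM38A shRNA MTs, between control (6.94) and untransduced MTs (7.51). The Uhrf1 calls of myogenesis, NET39 and TMEM214 held with its first probe under every alternative run per probe. The transduction count of 1 fell to 0 without background correction, with the deposited values, without the filter, with the probe mean, with array weights and with only the 2 groups fitted, and was 3 with median scaling, where Uhrf1 (0.63) and Ezh2 (0.24) turned sign. Median scaling shifted the median of all probes by 0.27 there, and the share of calls that were higher went from 50.8% (of 2600) to 99.8% (of 10960). That share went from 47.8% to 18.2% in myogenesis, 53.7% to 66.5% in NET39, 44.1% to 8.56% in TMEM38A, 53.6% to 9.04% in WFS1 and 53.5% to 65.8% in TMEM214. The NET39 count of 2 was 1 without background correction, with median scaling, deposited values, no filter and the probe mean, each time without Ezh2. The WFS1 count of 0 was 1 with median scaling and with untransduced MTs as reference, which turned Ezh2 to −0.55, and the TMEM38A count was 1 with that reference. Under this reference Dnmt1 was called higher in TMEM38A (0.50) and in NET39 (0.51), and Ezh2 was not called in NET39 (0.07). The TMEM214 count of 1 was 2 with median scaling and 0 with the probe mean, and the 8 calls between knockdowns were 4 with the probe mean. The NET39 to TMEM214 difference of Uhrf1 was not called with a normexp offset of 16 or median scaling. Leaving out 1 array gave 5 to 6 calls in myogenesis, 0 to 1 in transduction and 1 to 2 in NET39. The transduction call was lost without untransduced MT replicate 1 or 2 or control replicate 2 or 3. Other causes were not tested. With the replicate block the counts were 5, 1, 2, 0, 0 and 1 for myogenesis, transduction, NET39, TMEM38A, WFS1 and TMEM214. Uhrf1 in NET39 then had an adjusted p of 8.75e-06 in limma, and no member call changed. In the lists, 1 gene of H3K9 methylation and HP1 was lower in transduction with the block, against 2 in the main fit. Without MB replicate 1, chosen for the lists after seeing the data, 4 DNA methylation partners were lower in myogenesis, 1 PRC1 subunit and 1 replication-coupled gene were higher besides 6 and 10 lower, and 2 myoblast markers were higher. A BeadChip block was not run, since no source used here assigns arrays to BeadChips. Dim probes limit Dnmt3a, Hells and Ezh1.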
